A study of Mus musculus with 12 samples.

Results

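Histone methylation and acetylation enzymes were followed in CD8α+-like dendritic cells that had met dead cells. The set was chosen by gene symbol, with earlier results of these data known. It holds each gene of the arrays with a single symbol that belongs to the numbered Kdm, Kmt, Setd, Hdac, Sirt or Kat families, together with Ezh1, Ezh2, Ehmt1, Ehmt2, Suv39h2 and Ep300, each represented by its brightest row. The set came to 54 of the 14807 single-symbol genes. The RefSeq gene table held 16 further protein-coding genes with matching symbols that were not analysed here: Crebbp, Hdac1, Kat2b, Kat6a, Kdm3b, Kdm6b, Kdm7a, Kmt2a, Kmt2c, Kmt2d, Kmt2e, Setd2, Setd6, Setdb2, Sirt4 and Suv39h1.

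The 12 arrays covered 4 groups of 3. Mouse bone marrow on the C57BL/6 background was cultured for 10 days with Flt3 ligand (100 ng/ml), a cytokine that drives dendritic cell development, and a CD24-high, CD11b-low, B220-negative gate was sorted. The groups were Clec9a gfp/gfp cells with dead cells, Clec9a gfp/gfp cells left untreated, wild-type (WT) cells with dead cells, and WT cells left untreated. The gfp/gfp cells lack DNGR-1, the dead-cell receptor that Clec9a encodes. The dead cells had been killed with UVC (240 mJ/cm2, then 24 h of culture) and were present for 5 h. The untreated cells are labelled as the zero time point, so dead cells and 5 h of further culture cannot be told apart. All groups share Flt3 ligand culture and the sort, and the labels do not say that the 3 arrays of a group came from separate cultures or animals, so every p-value below measures the spread between these arrays only.

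Histone tails carry marks that set how open a stretch of chromatin is. Methyltransferases (Kmt, Setd, Ezh, Ehmt, Suv39h) write methyl groups onto lysines and demethylases (Kdm) take them off. Methylated H3K4 marks active promoters and enhancers, while trimethylated H3K9, H3K27 and H4K20 mark silent chromatin. Acetyltransferases (Kat, Ep300) loosen chromatin, and deacetylases (Hdac, and the NAD-dependent sirtuins) reverse that. In dendritic cells such enzymes are known to tune how quickly inflammatory genes can be switched on.

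The label check came first. Clec9a read 1.38, 3.99 and 0.59 in Clec9a gfp/gfp cells with dead cells and 4.16, 0.01 and 3.88 in untreated ones. It read 1496, 1372 and 1471 in WT cells with dead cells and 2646, 2648 and 2581 in untreated WT cells. Every gfp/gfp array was thus near the floor of the scale and matched its label. The 7 measured markers of cDC1, the cell type that CD8α+-like cells represent, included Clec9a. Their summed intensity was 11822 to 12478 in Clec9a gfp/gfp cells with dead cells and 32461 to 35044 untreated. In WT cells it was 13294 to 14386 with dead cells and 35676 to 38737 untreated. The gfp/gfp sums hold almost no Clec9a, so part of the gap between the genotypes' sums is Clec9a itself. With dead cells, 6 of the 7 were lower in WT cells and averaged over genotypes, and 5 in Clec9a gfp/gfp cells. The array medians ran from 77.9 to 85.9 with dead cells and from 93.6 to 101 untreated, and arrays of the same group correlated at r of 0.972 to 0.987 over all rows on the log2 scale.

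Most of the enzymes in this set, chosen by family name and not by substrate, were lower after dead cells. Changes are differences in log2(intensity + 16), dead cells minus untreated, with a limma fit over all 23238 rows and a call at a Benjamini-Hochberg adjusted p below 0.05. Averaged over both genotypes, 11 of the 54 rose, 35 fell and 8 were not called. The median change was -0.59, against -0.03 over all rows. The share called over all rows was 22.1% higher and 34.6% lower, and over the single-symbol genes it was 25.4% and 42.4%. Among the 10601 single-symbol genes whose mean intensity lay inside the enzymes' range (51.1 to 1859), 26.7% were higher and 53.6% lower, with a median of -0.36. Of the enzymes, 20.4% were higher and 64.8% lower. The share that fell stood above that of genes in this range by less than it stood above that of all rows. The range was wide and brightness inside it was not matched: 4 of the 54 enzymes had a mean below 100.

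The same balance was seen in each genotype. In Clec9a gfp/gfp cells 9 enzymes rose and 35 fell (median -0.61), against 16.6% higher and 32.1% lower over all rows. WT cells had 10 that rose and 34 that fell (median -0.56), with 14.5% and 31% over all rows. The genotypes shared 9 of the rises and 34 of the falls, against 13.7% and 37.8% of single-symbol genes called higher or lower in both. No enzyme was called in opposite directions, and 2 of the 14807 genes were. In the raw intensities, 10 enzymes had every dead-cell array above every untreated array within both genotypes and 35 had every dead-cell array below, while 17.9% and 39.1% of single-symbol genes were separated in these ways.

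How the arrays are scaled against each other decides part of this count. The dead-cell arrays had a lower upper quartile (231 to 259) than the untreated ones (396 to 437). After quantile normalization, 20 enzymes were higher and 27 lower (median -0.10, all rows 0.11, with 34.3% higher and 26.9% lower). After shifting each array to a common median, 17 were higher and 32 lower (median -0.37, all rows 0.20, with 39.8% and 29.4%). The 11 rises were called under all 3 scalings, and 26 of the 35 falls were. Those 11 are 20.4% of the enzymes, against 25.3% of single-symbol genes that were higher under all 3, and the 26 are 48.1%, against 32% that were lower. Kdm1b, Setd7, Kdm5a and Sirt6 were lower as deposited and higher after quantile normalization.

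**Figure D1:**
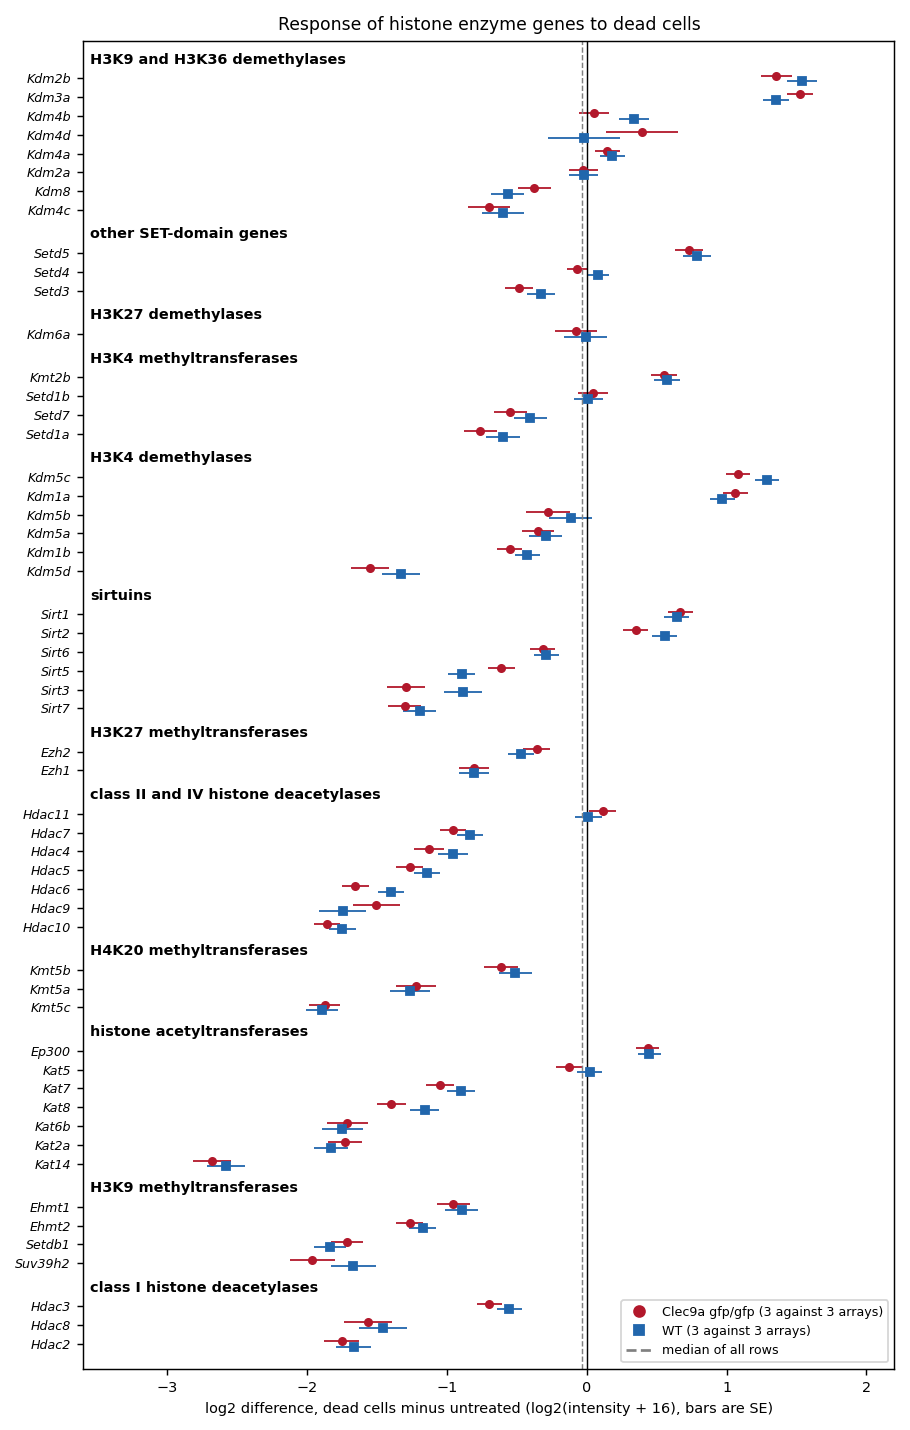
Log2 change with dead cells minus untreated for each of the 54 enzymes, arranged by class down the page, with circles for Clec9a gfp/gfp cells, squares for WT cells (3 against 3 arrays each), bars for the SE and a dashed line at the median of all rows. Kdm2b, Kdm3a, Kdm5c and Kdm1a stand furthest to the right, and Kat14 stands furthest to the left.

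Other cell types and states moved alongside these falls. Of 12 monocyte and macrophage markers, 12 were lower with dead cells (11 after quantile normalization), and their summed intensity was 1224 to 1658 in Clec9a gfp/gfp cells with dead cells, against 15899.5 to 17271 untreated, and 1347 to 1617 in WT cells with dead cells, against 13737 to 20714 untreated. All 7 measured genes of proliferating cells were lower under each scaling, with sums of 1395 to 1698 in Clec9a gfp/gfp cells with dead cells, against 9291 to 10262 untreated, and 1360.1 to 1710.3 in WT cells with dead cells, against 10178 to 11649 untreated. The 6 stromal markers were all lower too, under each scaling, summing to 1079 to 1436 in Clec9a gfp/gfp cells with dead cells, against 5969.7 to 9081 untreated, and 1071 to 1825 in WT cells with dead cells, against 6536 to 7973 untreated. Neutrophil markers (4 of 7 lower, and 2 higher after quantile normalization or a median shift) summed to 651 to 751 in Clec9a gfp/gfp cells with dead cells, against 1106 to 20519 untreated, and 486 to 636 in WT cells with dead cells, against 7838 to 13449.7 untreated. None of these markers read below 16 on every array. Among the rest, averaged over genotypes, 5 of 6 CD11b+ dendritic cell markers and 3 of 4 B cell markers were lower (4 and 1 after quantile normalization). Plasmacytoid dendritic cell markers (2 higher and 2 lower of 5) and T and NK cell markers (2 higher and 1 lower of 4) went both ways in that average. In a sorted bulk sample, fewer cells of a type and less RNA per cell cannot be told apart, and the part of these cells in the enzymes' falls was not tested.

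The H3K4 demethylases split by member. Kdm5c and Kdm1a rose while Kdm5d, Kdm1b and Kdm5a fell, and Kdm5b was not called (-0.20, limma adjusted p = 0.158). Kdm5c, an X-linked demethylase of trimethylated H3K4, was among the strongest rises. The Kdm5c intensities were 1405, 1447 and 1526 in dead-cell-treated Clec9a gfp/gfp cells, against 669, 683 and 695 untreated, and 1683, 1479 and 1536 in dead-cell-treated WT cells, against 656, 655 and 582 untreated. The dead-cell arrays lay above the untreated ones in both genotypes, and the averaged change was 1.18 ± 0.06 (SE, limma adjusted p = 1.46e-08). Its Y-linked partner Kdm5d went the other way. Kdm5d gave 88.6, 94.7 and 128 on the arrays of Clec9a gfp/gfp cells with dead cells, against 328, 302 and 367 without, and 124, 107 and 134 on those of WT cells with dead cells, against 354, 332 and 304 without. All dead-cell arrays were below the untreated ones, with a change of -1.44 ± 0.10 (adjusted p = 1.34e-07). Kdm1a (LSD1), which removes methyl groups from mono- and dimethylated H3K4 in the CoREST complex, also rose. Kdm1a read 1530.0, 1542 and 1731 in Clec9a gfp/gfp cells with dead cells, against 738, 746 and 789.6 in the untreated ones, and 1642, 1448 and 1604 in WT cells with dead cells, against 829.8, 794 and 747 in untreated WT cells. The groups did not overlap in either genotype (change 1.02 ± 0.06, adjusted p = 6.99e-08). Quantile normalization gave -0.91 for Kdm5d. The Kdm1a relative Kdm1b was 208 ± 6.66 in Clec9a gfp/gfp cells with dead cells, against 312 ± 10.2 in untreated ones, and 213 ± 18.1 in WT cells with dead cells, against 291 ± 20.1 in untreated WT cells (SD, n = 3 each). The change was -0.55 in Clec9a gfp/gfp cells and -0.42 in WT cells. Its average of -0.49 as deposited became 0.21, called higher, after quantile normalization. Kdm5a had -0.32 as deposited and 0.17, called higher, after quantile normalization. Its averaged change was not called after a median shift (-0.096, limma adjusted p = 0.266). In WT cells alone Kdm5a was not called as deposited (adjusted p = 0.0591).

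The stretches just upstream of these paralogs' transcription starts are shown because their ratios moved: Kdm5c and Kdm5d were called in opposite directions under each scaling, and Kdm1a and Kdm1b were as deposited and after a median shift but were both higher after quantile normalization. The choice was made after the values were seen. Each is the 250 bases before the start in RefSeq (GRCm38.p6), read 5′ to 3′ on the gene's strand, with capitals marking a motif match. Kdm5c lies at chrX:152232977-152233226, plus strand, Kdm5d at chrY:897538-897787, plus strand, Kdm1a at chr4:136602724-136602973, minus strand and Kdm1b at chr13:47043249-47043498, plus strand.
Kdm5c: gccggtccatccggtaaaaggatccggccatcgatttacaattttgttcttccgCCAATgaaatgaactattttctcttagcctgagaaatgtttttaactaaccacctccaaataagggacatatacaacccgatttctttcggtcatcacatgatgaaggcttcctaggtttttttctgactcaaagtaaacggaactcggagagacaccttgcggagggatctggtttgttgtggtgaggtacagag
Kdm5d: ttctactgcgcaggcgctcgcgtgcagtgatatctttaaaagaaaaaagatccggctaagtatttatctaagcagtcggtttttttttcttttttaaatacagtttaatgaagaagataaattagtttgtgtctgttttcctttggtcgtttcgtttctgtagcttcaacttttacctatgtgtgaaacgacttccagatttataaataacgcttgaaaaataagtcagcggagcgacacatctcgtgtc
Kdm1a: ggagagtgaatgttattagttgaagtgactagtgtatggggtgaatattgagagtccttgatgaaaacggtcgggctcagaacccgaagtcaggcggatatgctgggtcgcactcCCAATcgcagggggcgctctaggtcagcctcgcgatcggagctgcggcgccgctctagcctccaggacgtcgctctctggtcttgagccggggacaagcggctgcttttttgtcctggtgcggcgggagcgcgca
Kdm1b: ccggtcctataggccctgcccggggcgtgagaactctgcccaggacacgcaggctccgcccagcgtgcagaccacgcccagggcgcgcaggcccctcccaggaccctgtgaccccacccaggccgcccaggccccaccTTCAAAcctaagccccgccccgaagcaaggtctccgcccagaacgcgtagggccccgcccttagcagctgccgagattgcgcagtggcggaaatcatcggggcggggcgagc
The capitals are a CCAAT box 196 bases before the Kdm5c start and 135 bases before the Kdm1a start, and a CHR motif on the reverse strand 112 bases before the Kdm1b start. Kdm5d held none of the 6 motifs searched. The Kdm5 stretches were poorer in G and C (43.6% for Kdm5c and 36.4% for Kdm5d) than those of Kdm1a (59.2%) and Kdm1b (71.6%).

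Upstream stretches were found for 47 of the 54 enzymes, and 6 short motifs were searched on both strands, with matches of different motifs allowed to overlap. A CCAAT box (CCAAT, bound by NF-Y) stood in 5 of 9 enzymes that rose (55.6%), 13 of 32 that fell (40.6%) and 4 of 6 that were not called (66.7%), against 34.5% of 27025 genes. The CHR motif (TTTGAA, found in cell-cycle promoters) stood in 0 of 9 that rose and 5 of 32 that fell, against 16.3% of all genes. An NF-kB motif (GGGNNTTTC) stood in 2 of 47 enzymes (all genes 3.79%), an ISRE (GAAANNGAA, the interferon response element) in 1 (7.16%), a CRE (TGACGTCA) in 1 (1.62%) and an E2F motif (TTTNGCGC) in 0 (1.15%). A match describes the letters and is not a measured binding site.

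**Figure D2:**
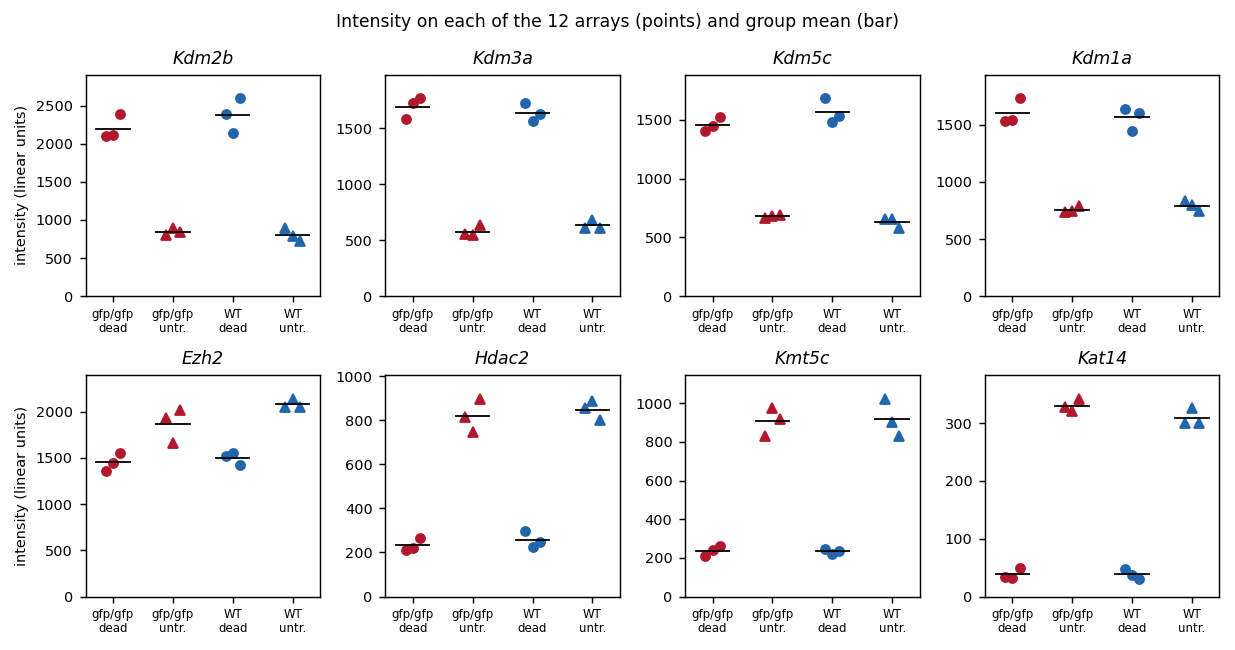
Deposited intensity (linear, axis from 0) on each of the 12 arrays for 8 enzymes, with groups in the order Clec9a gfp/gfp with dead cells, Clec9a gfp/gfp untreated, WT with dead cells and WT untreated, each point 1 array and a bar at the group mean. Dead-cell arrays are above untreated ones for Kdm2b, Kdm3a, Kdm5c and Kdm1a, and below for Ezh2, Hdac2, Kmt5c and Kat14, in both genotypes.

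Demethylases of H3K9 and H3K36 included Kdm2b and Kdm3a, which rose most as deposited and whose averages differed by less than their SE. Of the 8 measured genes placed in this class, Kdm2b, Kdm3a, Kdm4a and Kdm4b rose, Kdm4c and Kdm8 fell, and Kdm2a and Kdm4d were not called. Kdm2b removes methyl groups from H3K36 and brings a Polycomb repressive complex to unmethylated CpG islands. The Kdm2b intensities were 2099, 2109.8 and 2384 in dead-cell-treated Clec9a gfp/gfp cells, against 804, 897 and 842 untreated, and 2394, 2138 and 2595 in dead-cell-treated WT cells, against 901, 796 and 728 untreated. Dead-cell arrays were above untreated ones throughout, and the change was 1.45 ± 0.08 (adjusted p = 2.07e-08). Kdm3a, an H3K9 demethylase known to be induced by hypoxia, rose by nearly the same amount. Kdm3a gave 1583, 1724 and 1767 on the arrays of Clec9a gfp/gfp cells with dead cells, against 552, 548 and 633 without, and 1726, 1561 and 1623 on those of WT cells with dead cells, against 605, 684 and 606 without. Its groups did not overlap (change 1.44 ± 0.07, adjusted p = 6.61e-09). Kdm4a and Kdm4b, which act on trimethylated H3K9 and H3K36, had small changes of 0.16 and 0.19 (adjusted p = 0.0448 and 0.0488), and each lost its call in 10 of the 12 fits that left out 1 array. Kdm4c (-0.65) and Kdm8 (-0.47) fell as deposited and were not called after quantile normalization (0.05 and 0.08). Kdm2a was not called at -0.02 as deposited and was called higher after quantile normalization (0.32) and a median shift (0.20). Kdm4d was not called at 0.19 and was called higher after a median shift (0.42). Quantile normalization gave larger changes for Kdm4a (0.45) and Kdm4b (0.86).

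The single H3K27 demethylase measured, Kdm6a (UTX), showed no called change. Kdm6a read 428, 514 and 546 in Clec9a gfp/gfp cells with dead cells, against 576, 402 and 609.9 in the untreated ones, and 568, 487 and 553 in WT cells with dead cells, against 516, 561 and 538 in untreated WT cells. The groups overlapped in both genotypes, and the change was -0.04 ± 0.11 (adjusted p = 0.767). After quantile normalization it was called higher at 0.55, and a median shift gave 0.19 with no call.

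In the averaged response, all 9 measured methyltransferases of H3K27, H3K9 and H4K20 fell as deposited and after a median shift. All but Kmt5b fell after quantile normalization. Of single-symbol genes, 42.4% fell as deposited, 37.2% after a median shift and 33.1% after quantile normalization. Among those in the enzymes' intensity range, 53.6% fell as deposited. Suv39h1 and Setdb2 were not analysed. Ezh1 and Ezh2 are the alternative catalytic subunits of Polycomb repressive complex 2, which methylates H3K27. The Ezh1 intensities were 390.0, 414 and 465 in dead-cell-treated Clec9a gfp/gfp cells, against 724, 739 and 792 untreated, and 418, 362 and 439.8 in dead-cell-treated WT cells, against 781, 736 and 655 untreated. Dead-cell arrays were below untreated ones in both genotypes, with a change of -0.81 ± 0.08 (adjusted p = 2.56e-06) that was -0.23 after quantile normalization. Ezh2 was 1451 ± 99.0 in Clec9a gfp/gfp cells with dead cells, against 1869 ± 188 in untreated ones, and 1499 ± 69.5 in WT cells with dead cells, against 2081 ± 52.1 in untreated WT cells (SD, n = 3 each). The Ezh2 change was -0.36 in Clec9a gfp/gfp cells and -0.47 in WT cells, with no overlap in either genotype, and its average of -0.41 was -0.25 after quantile normalization and -0.19 after a median shift. In the separate Clec9a gfp/gfp comparison neither Ezh1 nor Ezh2 was called after quantile normalization. Ezh2 was not called there after a median shift either (-0.12, limma adjusted p = 0.206).

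The 4 H3K9 methyltransferases fell under each scaling of the averaged response. Ehmt2 (G9a), which with Ehmt1 (GLP) writes mono- and dimethylated H3K9, gave a clear separation. Ehmt2 gave 462, 427 and 510.3 on the arrays of Clec9a gfp/gfp cells with dead cells, against 1092, 1193 and 1146 without, and 504, 457 and 489 on those of WT cells with dead cells, against 1195, 1130.2 and 1014 without. No dead-cell array reached an untreated one (change -1.22 ± 0.07, adjusted p = 3.05e-08), and Ehmt1 changed by -0.92. After quantile normalization the changes were -0.74 for Ehmt2 and -0.23 for Ehmt1, which was then not called in WT cells (adjusted p = 0.0665). Setdb1 writes trimethylated H3K9 and is known for silencing endogenous retroviruses. Setdb1 read 163, 149 and 185 in Clec9a gfp/gfp cells with dead cells, against 581, 547 and 608 in the untreated ones, and 184, 139 and 151 in WT cells with dead cells, against 609, 621 and 574 in untreated WT cells. Its change was -1.78 ± 0.08 (adjusted p = 5.41e-09), again without overlap, or -1.14 after quantile normalization. Suv39h2 writes the trimethyl mark at constitutive heterochromatin. The Suv39h2 intensities were 10.3, 23.5 and 12.2 in dead-cell-treated Clec9a gfp/gfp cells, against 96.9, 106 and 110.5 untreated, and 20.4, 20.5 and 28.8 in dead-cell-treated WT cells, against 114, 122 and 91.8 untreated. The dead-cell values were dim, with some below the added 16, so the change of -1.82 ± 0.11 (adjusted p = 7.51e-08) is compressed on this scale.

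H4K20 methylation is begun by Kmt5a, which adds the first methyl group in a cell-cycle-dependent way, and extended by Kmt5b and Kmt5c. Kmt5a gave 405, 439.7 and 479 on the arrays of Clec9a gfp/gfp cells with dead cells, against 1006, 1093 and 1046 without, and 497, 318 and 456 on those of WT cells with dead cells, against 1006, 1051 and 1007 without. The separation was complete in both genotypes (change -1.24 ± 0.10, adjusted p = 7.36e-07). Kmt5c read 208, 239 and 262 in Clec9a gfp/gfp cells with dead cells, against 829.8, 975 and 919.7 in the untreated ones, and 247, 222 and 237 in WT cells with dead cells, against 1024, 904 and 831 in untreated WT cells. Its change was -1.88 ± 0.08 (adjusted p = 3.39e-09), without overlap. Quantile normalization gave -0.73 for Kmt5a and -1.27 for Kmt5c. Kmt5b changed by -0.56 as deposited and was not called after quantile normalization (0.15).

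The H3K4 methyltransferases did not move as a block. Kmt2b rose, Setd1a and Setd7 fell as deposited, and Setd1b was not called. Kmt2b (an MLL-family enzyme) methylates H3K4 at promoters. The Kmt2b intensities were 423, 468 and 478 in dead-cell-treated Clec9a gfp/gfp cells, against 312, 298 and 307 untreated, and 474, 427 and 498 in dead-cell-treated WT cells, against 330.1, 314 and 282 untreated. Dead-cell arrays lay above untreated ones in both genotypes, and the change was 0.56 ± 0.07 (adjusted p = 1.83e-05), or 1.18 after quantile normalization. Setd1a, a COMPASS catalytic subunit, had -0.68 as deposited and 0.03, uncalled, after quantile normalization. Its paralog Setd1b had 0.03 as deposited and was called higher after quantile normalization (0.65) and a median shift (0.25). Setd7, which adds a single methyl group to H3K4, was lower as deposited (-0.47) and higher after quantile normalization (0.23).

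Of 3 further SET-domain genes, Setd5 rose, Setd3 fell and Setd4 was not called as deposited. Setd5 is a chromatin regulator mutated in a human neurodevelopmental disorder. Setd5 gave 1027, 1118 and 1224 on the arrays of Clec9a gfp/gfp cells with dead cells, against 709, 601 and 698 without, and 1218, 1049 and 1155 on those of WT cells with dead cells, against 654, 667 and 634 without. All dead-cell arrays were above untreated ones (change 0.76 ± 0.07, adjusted p = 2.51e-06, or 1.18 after quantile normalization). Setd3, which methylates a histidine of actin, changed by -0.40 as deposited and by -0.25, still called lower, after quantile normalization, with no call after a median shift (-0.18). Setd4 had 0.01.

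Acetyltransferases were mostly lower: 5 of 7 fell, Ep300 rose and Kat5 was not called. As deposited, 64.8% of all 54 enzymes fell, and 53.6% of single-symbol genes in their intensity range. Quantile normalization kept the 5 falls and added Kat5 as higher. Crebbp, Kat2b and Kat6a were not analysed. Kat14, a subunit of the ATAC acetyltransferase complex, had the most negative change of all 54 enzymes. Kat14 read 34.3, 31.9 and 49.5 in Clec9a gfp/gfp cells with dead cells, against 327, 321 and 343 in the untreated ones, and 47.6, 37.7 and 31.2 in WT cells with dead cells, against 301, 327 and 300.0 in untreated WT cells. The averaged change was -2.63 ± 0.10 (adjusted p = 1.27e-09), and no arrays overlapped. Kat2a (GCN5), the catalytic subunit of ATAC and SAGA, fell with it. The Kat2a intensities were 184, 163 and 229 in dead-cell-treated Clec9a gfp/gfp cells, against 646, 677 and 685 untreated, and 182, 172 and 148 in dead-cell-treated WT cells, against 659, 649 and 594 untreated. Its change was -1.78 ± 0.09 (adjusted p = 9.04e-09), also without overlap, or -1.14 after quantile normalization.

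Kat6b (MORF), which acetylates H3 with the BRPF scaffold proteins, came next. Kat6b gave 67.5, 68.5 and 104 on the arrays of Clec9a gfp/gfp cells with dead cells, against 315, 254 and 318 without, and 81.3, 72.0 and 74.0 on those of WT cells with dead cells, against 295, 310.3 and 273 without. Dead-cell arrays were all below untreated ones, with a change of -1.73 ± 0.10 (adjusted p = 5.25e-08). Kat8 (MOF) acetylates H4K16 in the MSL and NSL complexes. Kat8 read 97.2, 103 and 112 in Clec9a gfp/gfp cells with dead cells, against 299.6, 274 and 328 in the untreated ones, and 124, 127 and 99.5 in WT cells with dead cells, against 287, 271 and 280.0 in untreated WT cells. The change was -1.28 ± 0.07 (adjusted p = 4.46e-08), with complete separation. Kat7 (HBO1) changed by -0.97. Ep300, the enhancer coactivator that acetylates H3K27, was 1490.0 ± 48.2 in Clec9a gfp/gfp cells with dead cells, against 1100.4 ± 92.3 in untreated ones and 1518 ± 10.5 in WT cells with dead cells, against 1109.7 ± 37.2 untreated (SD, n = 3 each). Its change was 0.44 (adjusted p = 5.37e-05), with no overlap in either genotype. After quantile normalization the changes were -0.76 for Kat8, -0.64 for Kat7 and 0.72 for Ep300. Kat5 (Tip60) had -0.05 as deposited and was called higher after quantile normalization (0.49) and a median shift (0.17).

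The classical histone deacetylases fell almost as a family. Of 10 measured, 9 were lower under all 3 scalings, against 48.1% of the 54 enzymes and 32% of single-symbol genes. Hdac1 was not analysed. Hdac11, the class IV enzyme, was not called as deposited (0.06) and was called higher after quantile normalization (0.52) and a median shift (0.29). Hdac2 is a catalytic subunit of the NuRD, Sin3 and CoREST complexes. The Hdac2 intensities were 209.9, 222 and 264 in dead-cell-treated Clec9a gfp/gfp cells, against 815, 745 and 898 untreated, and 297, 226 and 248 in dead-cell-treated WT cells, against 856, 887 and 800.5 untreated. The groups were far apart in both genotypes (change -1.71 ± 0.09, adjusted p = 1.45e-08). Hdac8, a class I enzyme that deacetylates cohesin, fell as well. Hdac8 gave 41.9, 42.1 and 66.8 on the arrays of Clec9a gfp/gfp cells with dead cells, against 189.5, 145 and 200.27 without, and 44.5, 65.7 and 46.4 on those of WT cells with dead cells, against 176, 169 and 163 without. It changed by -1.51 ± 0.12 (adjusted p = 6.72e-07) without overlap. Hdac3, the enzyme of the NCoR and SMRT corepressors, changed by -0.62. Quantile normalization reduced the changes to -1.08 for Hdac2 and -0.25 for Hdac3.

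In class II, all 6 enzymes measured fell under each scaling. Hdac10 acts on polyamines. Hdac10 read 90.6, 87.4 and 90.2 in Clec9a gfp/gfp cells with dead cells, against 363, 370.3 and 365 in the untreated ones, and 101, 89.8 and 77.8 in WT cells with dead cells, against 366, 327 and 322 in untreated WT cells. Its change was -1.80 ± 0.07 (adjusted p = 1.39e-09). Hdac6, the cytoplasmic deacetylase of tubulin, followed. The Hdac6 intensities were 72.6, 80.2 and 96.6 in dead-cell-treated Clec9a gfp/gfp cells, against 298, 297 and 289.8 untreated, and 92.7, 83.4 and 90.7 in dead-cell-treated WT cells, against 267, 261 and 254 untreated. Dead-cell arrays were all lower, with a change of -1.53 ± 0.07 (adjusted p = 4.69e-09).

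Hdac4, Hdac5, Hdac7 and Hdac9 are the class IIa enzymes, which shuttle between nucleus and cytoplasm and bind MEF2 factors. Hdac9 gave 57.2, 38.9 and 51.4 on the arrays of Clec9a gfp/gfp cells with dead cells, against 153, 153 and 201 without, and 84.8, 51.4 and 59.5 on those of WT cells with dead cells, against 259.8, 237 and 261 without. The dead-cell and untreated arrays did not overlap (change -1.63 ± 0.12, adjusted p = 2.66e-07). Hdac5 read 174, 178 and 207 in Clec9a gfp/gfp cells with dead cells, against 451, 464 and 494 in the untreated ones, and 190.4, 204 and 175 in WT cells with dead cells, against 456, 441 and 416 in untreated WT cells. The Hdac5 change was -1.21 ± 0.07 (adjusted p = 2.65e-08). The Hdac4 intensities were 143, 146 and 191 in dead-cell-treated Clec9a gfp/gfp cells, against 364, 377 and 356 untreated, and 154, 157 and 165 in dead-cell-treated WT cells, against 336, 331 and 301 untreated. For Hdac4 the change was -1.04 ± 0.08 (adjusted p = 2.9e-07), and Hdac7 changed by -0.89, with dead-cell arrays below untreated ones for all 4 genes in both genotypes. Quantile normalization reduced the changes to -0.51 for Hdac5, -0.38 for Hdac4 and -0.34 for Hdac7, and left Hdac9 at -1.33.

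Sirtuins parted by member. Sirt1 and Sirt2, mainly nuclear and cytoplasmic deacetylases, rose by 0.66 and 0.45 (adjusted p = 2.79e-06 and 7.09e-05), under all 3 scalings. Sirt3, Sirt5, Sirt6 and Sirt7 fell as deposited. Sirt7 is the nucleolar sirtuin. Sirt7 gave 367, 409 and 470.5 on the arrays of Clec9a gfp/gfp cells with dead cells, against 995, 1073 and 1061 without, and 489, 388 and 447 on those of WT cells with dead cells, against 1140.0, 973 and 978 without. The change was -1.25 ± 0.08 (adjusted p = 1.44e-07), with no overlap. Sirt3 is the main mitochondrial deacetylase. Sirt3 read 64.7, 78.3 and 90.7 in Clec9a gfp/gfp cells with dead cells, against 218, 199.97 and 220.3 in the untreated ones, and 82.8, 87.2 and 120.2 in WT cells with dead cells, against 201, 178 and 193 in untreated WT cells. It changed by -1.09 ± 0.10 (adjusted p = 1.75e-06), again with no overlap. Quantile normalization gave -0.73 for Sirt7, -0.71 for Sirt3 and 0.74 for Sirt2. Mitochondrial Sirt5 changed by -0.75, and Sirt6 had -0.30 as deposited but 0.33, called higher, after quantile normalization.

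**Figure D3:**
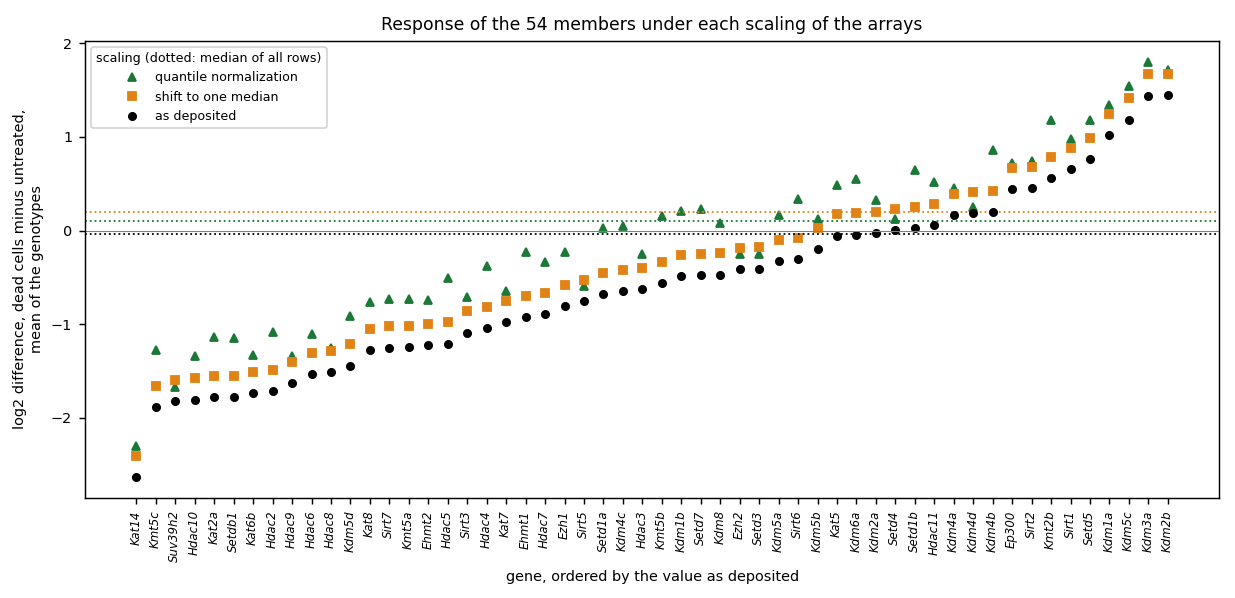
Log2 change with dead cells minus untreated, averaged over both genotypes, for each of the 54 enzymes (ordered by the deposited value along the x axis) as deposited (circles), after quantile normalization (triangles) and after a shift to a common median (squares), with dotted lines at the medians of all rows. The 11 rises and the steepest falls keep their sign in all 3 series of points, while the middle of the range crosses 0 after quantile normalization.

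Ratios between paralogs on the same array were compared next, since a common scaling of an array cancels in them when values are well above 16. Over 20 pairs within 8 small families, the exact permutation test within genotype (400 relabellings, two-sided, smallest possible p 0.005) gave a Benjamini-Hochberg adjusted p below 0.05 for 16. Pairs of other genes were not compared, and with 25.4% of genes called higher and 42.4% lower the count is read as a description of these pairs only. The log2 ratio of Kdm5c to Kdm5d moved by 2.62 (exact adjusted p = 0.00667), and it was 2.46 after quantile normalization. Kdm1a to Kdm1b moved by 1.504 and Kmt5b to Kmt5c by 1.32, both with the same adjusted exact p. Kdm2a to Kdm2b moved by -1.47, Setd1a to Setd1b by -0.71 and Ehmt1 to Ehmt2 by 0.30. The Ezh1 to Ezh2 ratio moved by -0.39 as deposited and by only 0.02 after quantile normalization. The 4 pairs that did not pass were Kdm4a with Kdm4b, Kdm4a with Kdm4d, Kdm4b with Kdm4d, and Kdm5a with Kdm5b. Quantile normalization turned the Kdm4a to Kdm4b ratio from -0.03 to -0.41, that of Kdm4b to Kdm4d from 0.0053 to 0.61 and the passing Kdm4c to Kdm4d ratio from -0.84 to -0.20. It also left Kdm4a to Kdm4c at 0.40, against 0.81 as deposited, and Ehmt1 to Ehmt2 at 0.51. The remaining 12 passing pairs differed by less than 1.5 times between these scalings. A ratio shows unequal change between paralogs and not which of them changed.

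**Figure D4:**
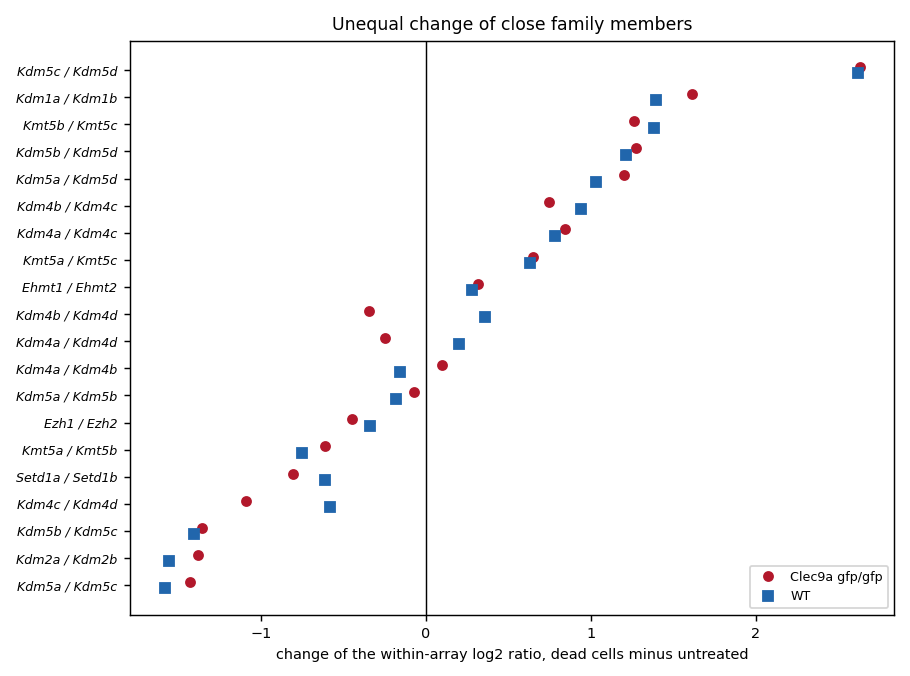
Change of the within-array log2 ratio, dead cells minus untreated, for the 20 paralog pairs down the page, with circles for Clec9a gfp/gfp cells and squares for WT cells (differences of means of 3 arrays). Kdm5c over Kdm5d stands furthest to the right at 2.63 in Clec9a gfp/gfp cells and 2.62 in WT cells, and the 3 pairs among Kdm4a, Kdm4b and Kdm4d have the genotypes on opposite sides of 0.

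The proteins that work with these enzymes were read from lists chosen with earlier results of these data known. Beside the partner counts here and below, 25.4% of single-symbol genes rose and 42.4% fell as deposited. After quantile normalization these shares were 38.8% and 33.1%. COMPASS partners, the shared subunits of H3K4 methyltransferases, were nearly uniform: 7 of 8 fell and 0 rose, with a median change of -1.52. After quantile normalization 6 fell and 1 rose. Ash2l, a core subunit, changed by -2.42 ± 0.09, Hcfc1 by -1.80 ± 0.07 and Paxip1 by -1.86 ± 0.08 (limma adjusted p = 1.46e-09, 1.43e-09 and 2.87e-09). The Polycomb repressive complex 2 partners were divided, with 3 of 9 higher and 6 lower (median -0.45), and 6 higher and 3 lower after quantile normalization. Aebp2, an accessory subunit, rose by 1.36 ± 0.08, while the histone chaperones Rbbp4 and Rbbp7 changed by -1.28 ± 0.07 and -1.28 ± 0.09. For the last 3 genes the direction held under all 3 scalings.

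Among 16 partners of deacetylase complexes, 6 rose and 9 fell (median -0.38), or 8 and 7 after quantile normalization. The NCoR-complex paralogs Tbl1x and Tbl1xr1 went opposite ways, at 1.20 ± 0.05 and -1.20 ± 0.06, and Mbd3 of NuRD changed by -1.96 ± 0.08. Partners of acetyltransferase complexes included 3 that rose and 11 that fell of 17 (median -0.62), and 7 and 6 after quantile normalization. Msl3, the chromodomain subunit that works with Kat8, changed by -2.32 ± 0.07. The plant homeodomain proteins Ing5 and Ing4 changed by -1.80 ± 0.09 and -1.05 ± 0.07.

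Further enzymes and readers had more falls than rises as deposited, beside 42.4% of all single-symbol genes that fell. Of 19 other histone methyltransferases and demethylases, 5 rose and 12 fell (median -1.09), or 9 and 10 after quantile normalization. The arginine methyltransferases Prmt5 and Prmt7 changed by -2.85 ± 0.08 and -1.99 ± 0.07, and Smyd5 by -2.30 ± 0.07. Dot1l, the H3K79 methyltransferase, rose by 1.75 ± 0.07, Riox2 by 1.40 ± 0.09 and Nsd3 by 1.14 ± 0.06, under all 3 scalings. These 3 and Tet2 below were named after their values were seen. Readers of acetylated or methylated histones had 1 rise and 9 falls among 11 (median -1.09), or 3 and 8 after quantile normalization, with Brd3 at -2.13 ± 0.10, Mllt3 at -1.77 ± 0.08 and Cbx5 (HP1α, which binds methylated H3K9) at -1.67 ± 0.08. DNA methylation enzymes had 1 rise and 5 falls among 6 (median -1.07), or 2 and 3 after quantile normalization. Dnmt1, which copies DNA methylation at replication, changed by -2.37 ± 0.08, its partner Uhrf1 by -2.37 ± 0.10 and the de novo enzyme Dnmt3b by -1.47 ± 0.07. Tet2, which oxidises methylated cytosine, rose by 1.505 ± 0.09, under all 3 scalings. The proliferation markers whose sums are given above moved with these genes, and their part in these falls was not tested.

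Loss of DNGR-1 was then set against WT. No enzyme was called between Clec9a gfp/gfp and WT cells, where over all rows 0.0258% were called higher and 0.0043% lower untreated, and 0% and 0.0043% with dead cells. In untreated cells 1 of 54 enzymes had an unadjusted limma p below 0.05, and with dead cells 1 did. The 95% interval of the difference lay within a 2-fold change either way for all 54 in both conditions. Untreated, the smallest p-values belonged to Hdac9 at -0.55 (95% interval -0.92 to -0.18, adjusted p = 0.953), Sirt2 at 0.17 (95% interval -0.02 to 0.37, adjusted p = 1) and Hdac6 at 0.17 (95% interval -0.04 to 0.38, adjusted p = 1). With dead cells they belonged to Sirt5 at 0.28 (95% interval 0.07 to 0.49, adjusted p = 0.778), Setd4 at -0.17 (95% interval -0.35 to 0.00, adjusted p = 0.886) and Suv39h2 at -0.34 (95% interval -0.69 to 0.01, adjusted p = 0.893). Untreated, every Clec9a gfp/gfp array was above every WT array for 6 enzymes (Hdac4, Hdac6, Kat7, Kdm4b, Kdm5c and Setd1a) and below for 2 (Ezh2 and Hdac9). That is 11.1% and 3.7% of the 54, against 7.33% and 5% of single-symbol genes. With dead cells, Hdac11 and Sirt5 were separated above and Setd4 below, or 3.7% and 1.85%, against 4.36% and 3.78% of genes. Sirt5 read 69.0, 55.6 and 57.9 in Clec9a gfp/gfp cells with dead cells, against 46.7, 48.2 and 46.4 in WT cells with dead cells, and 102, 92.6 and 109 in untreated Clec9a gfp/gfp cells, against 109, 102 and 93.9 in untreated WT cells. A p that misses the threshold does not show that the genotypes were alike.

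Whether the response to dead cells itself differed by genotype was tested by the interaction term. No enzyme was called, and 0 of 54 had an unadjusted limma p below 0.05, while 0% of all rows were called higher and 0.0043% lower. The smallest p-values were those of Sirt5 at 0.28 (95% interval -0.01 to 0.58, adjusted p = 0.999), Sirt3 at -0.41 (95% interval -0.84 to 0.03, adjusted p = 0.999) and Kdm4b at -0.29 (95% interval -0.62 to 0.05, adjusted p = 0.999). For 53 of 54 enzymes the interval of the difference lay within 2-fold either way. The exception was Kdm4d at 0.41 (95% interval -0.40 to 1.22, adjusted p = 0.999), whose intensities ran from 21.2 to 68.1. Kdm2b had 1.36 in Clec9a gfp/gfp cells and 1.54 in WT cells, Kdm3a had 1.53 in Clec9a gfp/gfp cells and 1.35 in WT cells, and Kat14 had -2.68 in Clec9a gfp/gfp cells and -2.58 in WT cells.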

How the data were processed

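Each of the 12 samples was hybridised to its own Affymetrix whole-transcript array. The values the authors deposited are linear intensities, 1 for each of 23238 rows, judging the scale by their range. Per the labels' protocols, column-purified and DNase-treated RNA was depleted of ribosomal RNA and given a biotin label. The submitters' processing notes name the build mm8. For software, background correction and normalization no detail is given in the sources used here, so how far the groups were put on 1 scale is unknown. The number of arrays limits the precision, no scan batch was known, and no detection calls were used.

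Gene symbols came from the platform's annotation, updated by gene ID to RefSeq. A single symbol was found for 14939 rows, several for 989, and 7310 were missing from the gene table. Setd1a alone among the members had more than 1 row. The fit used log2(intensity + 16) on all 12 arrays with limma 3.58.1 (lmFit, eBayes) in R 4.3.3, with Benjamini-Hochberg adjustment over all rows and no intensity filter. The averaged response is the mean of both genotypes' responses. The script was tested on simulated data. Members, classes and gene lists were chosen with earlier results of these data known. Values on every array are given for members called with a log2 change of at least 1, or, in a class with none, the smallest p. Genotype comparisons name the 3 smallest p-values, and partner lists name up to 3. The other genes are given by their change, ranges or counts. Alternatives were quantile normalization, a median shift, no pseudocount, pseudocounts of 1 and 64, trended and robust eBayes, the mean of a gene's rows, leaving out the dimmest 25% of rows, a fold minimum of 1.5, the replicate number as a block, and leaving out each array.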

Additional observations from a re-analysis of the deposited data

How the results depend on the processing

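The count of enzymes that fell held within 1.5 times its deposited value under every alternative run, but the count that rose did not. Quantile normalization gave 17 rises in Clec9a gfp/gfp cells, 20 in WT cells and 20 averaged over both. A median shift gave 14 in Clec9a gfp/gfp cells and 17 averaged. A minimum of 1.5-fold left 6 rises in WT cells and 6 averaged. Leaving out each array in turn gave 9 rises in Clec9a gfp/gfp cells, 9 to 10 in WT cells and 9 to 10 averaged, and 33 to 35, 32 to 35 and 35 to 36 falls in the same comparisons. Between genotypes 0 enzymes were called in each of these fits.

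Kdm6a, never called as deposited, changed sign. Its averaged change was 0.55 after quantile normalization, 0.19 after a median shift and -0.13 to 0.013 with an array left out. The values were 0.55, 0.16 and -0.26 to 0.034 in Clec9a gfp/gfp cells, and 0.55, 0.21 and -0.050 to 0.058 in WT cells. Ezh1 lost its call in Clec9a gfp/gfp cells after quantile normalization (-0.21, limma adjusted p = 0.0579). In the same cells Ezh2 lost its call after quantile normalization (-0.16, adjusted p = 0.145) and after a median shift (-0.12, adjusted p = 0.206). The scalings differ by their own construction, and which of them fits these cells was not tested. Of the calls lost when 1 array was left out, Kdm4a and Kdm4b in the averaged response were lost in 10 of 12 fits each, Kdm4b in WT cells in 3, Kdm5a and Kdm8 in Clec9a gfp/gfp cells in 3 each, and Setd3, Setd7 and Sirt6 in WT cells in 3, 2 and 2.

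Replicate numbers did not pair the arrays: same-numbered arrays of different groups correlated at -0.20 to 0.19 in their deviations from the group means, and other pairs at -0.19 to 0.24. With the replicate number as a block, 9 enzymes rose and 35 fell in the averaged response, 9 and 35 in Clec9a gfp/gfp cells, and 10 and 34 in WT cells. Without detection calls, signal over background is unknown, and dim enzymes such as Suv39h2 and Kdm4d have compressed changes.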
